A study of Mus musculus with 4 samples.

Results

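The 10 genes described here belong to the Hippo pathway. They are the transcriptional co-activators Yap1 and Wwtr1 (which encodes TAZ), the DNA-binding factors Tead1, Tead2, Tead3 and Tead4, the kinases Lats1 and Lats2, the scaffold Sav1 and the phosphatase Ptpn14. They were found by symbol and make up 10 of the 54446 Ensembl genes in the deposited count table. RNA was sequenced from tongue-derived epithelial cells of C57BL/6 mice, grown in RPMI-1640 with serum. The 2 groups compared were 2 libraries labelled as a systemic knockout of Otub2 (called KO 3 and KO 4 after their titles) and 2 libraries labelled wild type (wild type 1 and 2). The labels give no age, no deleted part of Otub2 and no word on whether the 2 libraries per group are separate mice or cultures, so the p-values cover only differences among these 4 libraries, perhaps technical ones.

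In the Hippo pathway, a kinase cascade that ends in LATS1 and LATS2, with SAV1 as a scaffold, phosphorylates YAP and TAZ and holds them out of the nucleus. When the cascade is off, YAP and TAZ enter the nucleus and bind TEAD factors, which carry them to DNA. In stratified epithelia the pathway is known for tuning growth of the basal layer and its response to crowding, stretch and wounding. OTUB2 is a deubiquitinase that has been described, in cancer cells, as a stabiliser of the YAP and TAZ proteins. The counts here are of transcripts and say nothing of protein amount, phosphorylation or location.

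Gene counts summed to 22719550 in KO 3 and 18911259 in KO 4, against 12185345 in wild type 1 and 11548186 in wild type 2. The columns of the libraries labelled knockout are headed OE, a common short form of overexpression, and the titles and genotype labels were followed here. Otub2 itself was at 19.0 and 24 CPM (counts scaled to library depth by TMM) in KO 3 and KO 4, and at 27.5 and 26.9 CPM in wild type 1 and 2, which does not check a deletion, since the deleted part is not given. KO 3 stood apart, with 40.0% of its gene counts in its 10 most abundant genes, against 8.12% in KO 4 and 12.4% and 12% in wild type 1 and 2. The 11 salivary gland markers listed for this work summed to 424148 CPM in KO 3, 29.2 CPM in KO 4, and 10.9 and 8.35 CPM in wild type 1 and 2. The 8 cardiac muscle markers summed to 16812, 34.3, 57.7 and 56.3 CPM in the same order. Keratinocyte transcripts were present in all 4 libraries. Krt5, a keratin of basal cells, was at 3712 and 8223 CPM in KO 3 and KO 4 and at 5025 and 4840 CPM in wild type 1 and 2, and Cdh1, the epithelial cadherin, at 326 and 508 CPM in the knockout libraries against 473 and 416 CPM. Levels differed between markers. Of 7 basal markers, 2 (Itgb4 and Col17a1) lay above both wild-type libraries in both knockout libraries and 2 (Krt14 and Krt15) below. Of 9 genes listed for this work as markers of differentiating keratinocytes, 0 lay above and 6 below. The 9 are Krt4, Krt13, Krt6a, Krt6b, Krt16, Krtdap, Sbsn, Dsg3 and Dsc3. Among all genes with a mean of at least 5 CPM, 42.7% lay above and 12% below. Krt15 was at 146 and 25.1 CPM in KO 3 and KO 4, against 179 and 197 CPM in wild type 1 and 2. Because KO 3 stands apart, the values of KO 3 and KO 4 are given one by one, and counts of called genes also for KO 4 alone against the wild-type pair.

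RefSeq promoter windows, from 250 bases before to 50 after a gene's start on GRCm38.p6, were available for 8 of the 10 genes. The core letters of the known TEAD binding motif, CATTCC or its reverse complement GGAATG, were found in at least 1 window of 6 of these 8 genes, Yap1, Wwtr1, Tead3, Lats2, Sav1 and Ptpn14. Among all 26994 genes with a window, 16.6% held these letters, and among all windows with at least 60% G and C, 9.38% held them. The AP-1 motif TGANTCA was found in no window of the 8 genes and in 7.81% of all windows. Windows are shown for Wwtr1 and Lats2, whose transcripts lay highest over the wild-type libraries among genes with a window, and for Yap1, the paralog of Wwtr1, whose transcripts lay close to them. They are chr3:57575861-57576160 for Wwtr1, chr14:57746074-57746373 for Lats2 and chr9:8004547-8004846 for Yap1, all on the minus strand of GRCm38.p6 and printed 5′ to 3′ in the direction of the gene, with CATTCC or GGAATG in capitals.
Wwtr1: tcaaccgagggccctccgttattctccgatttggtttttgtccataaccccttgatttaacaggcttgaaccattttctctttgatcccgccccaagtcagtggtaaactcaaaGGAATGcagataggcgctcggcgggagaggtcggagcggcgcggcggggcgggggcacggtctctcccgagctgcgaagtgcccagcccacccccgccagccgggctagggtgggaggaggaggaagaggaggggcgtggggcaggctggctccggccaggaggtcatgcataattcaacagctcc
Lats2: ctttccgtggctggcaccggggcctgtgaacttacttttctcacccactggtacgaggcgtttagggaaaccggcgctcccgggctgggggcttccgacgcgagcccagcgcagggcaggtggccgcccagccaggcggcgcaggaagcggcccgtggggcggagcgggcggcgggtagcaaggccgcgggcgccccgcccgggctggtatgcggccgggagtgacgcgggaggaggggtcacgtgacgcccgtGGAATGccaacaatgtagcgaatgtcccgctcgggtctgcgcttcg
Yap1: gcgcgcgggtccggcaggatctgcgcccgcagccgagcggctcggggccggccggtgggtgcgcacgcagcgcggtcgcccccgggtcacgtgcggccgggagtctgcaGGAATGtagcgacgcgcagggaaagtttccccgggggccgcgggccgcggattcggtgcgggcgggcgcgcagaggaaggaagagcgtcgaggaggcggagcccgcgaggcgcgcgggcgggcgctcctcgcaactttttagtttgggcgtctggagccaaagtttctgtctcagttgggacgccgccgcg
With the start base at position 0, the capitals begin at -136 in Wwtr1, at -141 in Yap1 and at 4 in Lats2. The other Lats2 window, chr14:57734369-57734668, held no such letters, and both Lats2 windows lie inside the annotated gene. The windows of Tead2 and Lats1, not printed, also held none. The letters describe the reference sequence and were not tested for binding by any factor.

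On TMM-scaled CPM, Yap1 transcripts differed little between the groups, whereas Wwtr1 transcripts lay above both wild-type libraries in both libraries labelled knockout. Yap1 (ENSMUSG00000053110, chromosome 9, 7931999 to 8004596, minus strand of GRCm38, protein coding) had 2093 and 3259 counts in KO 3 and KO 4 and 2081 and 1848 counts in wild type 1 and 2. Its scaled levels were 146 and 158 CPM in KO 3 and KO 4, against 146 and 135 CPM in wild type 1 and 2. The groups touched at their edges, and the log2 fold change, knockout over wild type, was 0.11 (SE 0.245, 95% interval -0.51 to 0.74, edgeR adjusted p = 0.778). Wwtr1 (ENSMUSG00000027803, chromosome 3, 57455649 to 57575910, minus strand) had 875 and 1994 counts in KO 3 and KO 4 and 494 and 554 counts in wild type 1 and 2. It was at 61.1 and 96.5 CPM in KO 3 and KO 4, against 34.6 and 40.6 CPM in wild type 1 and 2, with no overlap. The log2 fold change was 1.07 (SE 0.322, interval 0.25 to 1.89, edgeR adjusted p = 0.170), which did not pass the threshold of 0.05. In a bulk sample, fewer cells of a type and less RNA per cell cannot be told apart, here and in all results below.

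The balance of the 2 co-activators can be read inside a library, where it does not depend on how libraries are scaled. On the deposited FPKM values, which divide counts by gene length and library total, Yap1 was at 9.82 and 18.4 FPKM in KO 3 and KO 4 and at 17.9 and 16.8 FPKM in wild type 1 and 2. Wwtr1 was at 7.95 and 21.9 FPKM in KO 3 and KO 4 and at 8.24 and 9.76 FPKM in wild type 1 and 2. The ratio of Wwtr1 to Yap1 was 0.810 in KO 3 and 1.19 in KO 4, against 0.460 and 0.581 in wild type 1 and 2. On FPKM, Wwtr1 was above Yap1 in KO 4 only, and in KO 3 the ratio still lay above both wild-type libraries. In counts, Yap1 was above Wwtr1 in every library, so which of them leads in KO 4 rests on the division by length. The difference of the log2 ratios was 0.92 (knockout mean -0.03 ± 0.389, wild-type mean -0.95 ± 0.238, SD, n = 2 each). An exact two-sided permutation test gave p = 0.333, the smallest value that 2 libraries against 2 can give.

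**Figure D1:**
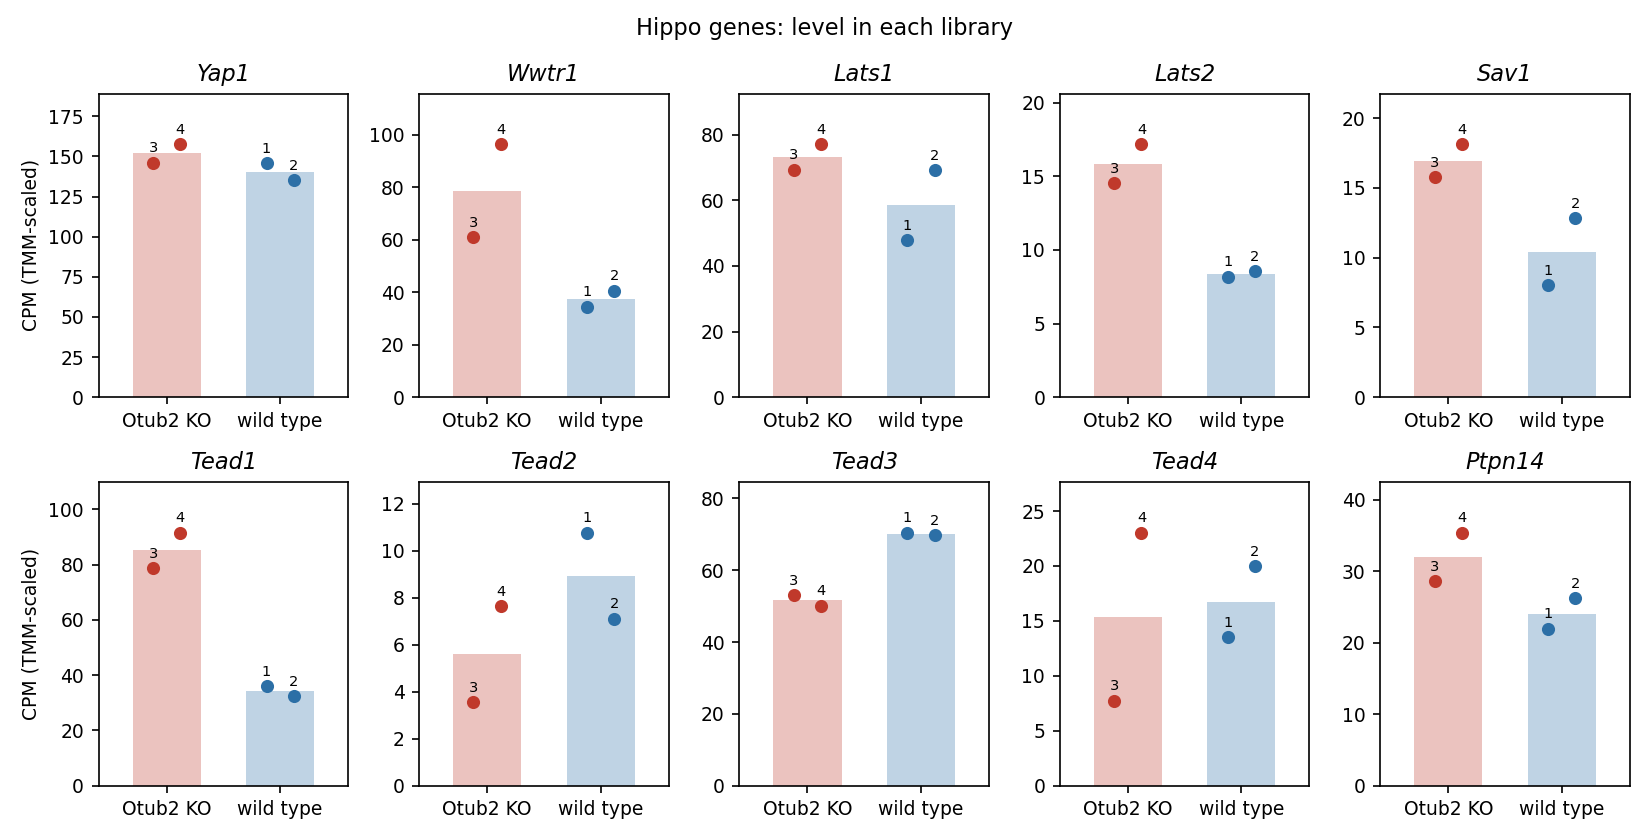
Level of each of the 10 genes in TMM-scaled CPM (linear axes from 0), with points for the single libraries marked by their number and bars for the mean of the 2 libraries of a group. The knockout and wild-type points lie well apart for Wwtr1, Tead1, Lats2 and Tead3, near each other for Yap1, and mixed for Tead2 and Tead4.

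Among the TEAD factors, Tead1 and Tead3 lay on opposite sides of the wild-type libraries. Tead1 (ENSMUSG00000055320, chromosome 7, 112679318 to 112906807, plus strand) had 1127 and 1892 counts in KO 3 and KO 4 and 514 and 443 counts in wild type 1 and 2. It was at 78.7 and 91.6 CPM in KO 3 and KO 4, against 36 and 32.4 CPM in wild type 1 and 2. Both knockout libraries were more than 2-fold above the wild-type mean, by 2.30-fold in KO 3 and 2.68-fold in KO 4. The log2 fold change was 1.32 (SE 0.251, interval 0.68 to 1.95, edgeR adjusted p = 0.166), the highest of the 10 genes. It did not pass in edgeR, and it was the 1 gene of the 10 that DESeq2 called (log2 fold change 1.37, adjusted p = 0.0159). Over the other settings its adjusted p ran from 7.6e-07 to 0.832.

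Tead3 (ENSMUSG00000002249, chromosome 17, 28331671 to 28350817, minus strand), the TEAD factor with the most transcript per length in the wild-type cells, had 760 and 1035 counts in KO 3 and KO 4 and 1007 and 952 counts in wild type 1 and 2. It was at 53.1 and 50.1 CPM in KO 3 and KO 4, against 70.5 and 69.7 CPM in wild type 1 and 2, with no overlap. The log2 fold change was -0.44 (SE 0.234, interval -1.04 to 0.15, edgeR adjusted p = 0.283), so the test did not separate it from 0. Tead2 and Tead4 differed more between the 2 knockout libraries than between the groups. Tead2 (chromosome 7, 45215753 to 45233644) was at 3.56 and 7.65 CPM in KO 3 and KO 4, against 10.8 and 7.10 CPM in wild type 1 and 2 (log2 fold change -0.67, SE 0.557, edgeR adjusted p = 0.457). Tead4 (chromosome 6, 128224288 to 128300823) was at 7.75 and 23.0 CPM in KO 3 and KO 4, against 13.5 and 20 CPM in wild type 1 and 2 (log2 fold change -0.12, SE 0.60, edgeR adjusted p = 0.907). For both, KO 3 was the lowest of the 4 libraries. KO 4 lay inside the wild-type range for Tead2 and above it for Tead4.

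The makeup of the TEAD family was different in the 2 groups. Tead1 made up 34.9% of the summed TEAD FPKM in KO 3 and 30.4% in KO 4, against 13.8% in wild type 1 and 12.1% in wild type 2. The means were 32.7% ± 3.22 in the knockout libraries and 13% ± 1.26 in the wild-type libraries (SD, n = 2 each), a difference of 19.7 percentage points (exact two-sided permutation p = 0.333, the smallest possible). Tead3 made up 47.6% and 33.6% in KO 3 and KO 4, against 54.8% and 52.4% in wild type 1 and 2. Tead3 thus held over 50% of the TEAD transcript in both wild-type libraries and less than that in both others. Tead2 and Tead4 together account for the rest. The share of Tead4 was 13% in KO 3 and 28.8% in KO 4, around the 19.6% and 28% in wild type 1 and 2, and that of Tead2 was 4.48% and 7.19% against 11.8% and 7.49%. The ratio of Tead1 to Tead3 FPKM was 0.734 and 0.904 in KO 3 and KO 4, against 0.253 and 0.230 in wild type 1 and 2. Its log2 difference was 1.76 (knockout mean -0.30 ± 0.213, wild-type mean -2.05 ± 0.0944, SD, n = 2 each). In counts, Tead1 was above Tead3 in both knockout libraries (1127 and 1892 against 760 and 1035), so which of them leads there rests on the division by length. The log2 difference was 1.61 with KO 3 alone and 1.91 with KO 4 alone.

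**Figure D2:**
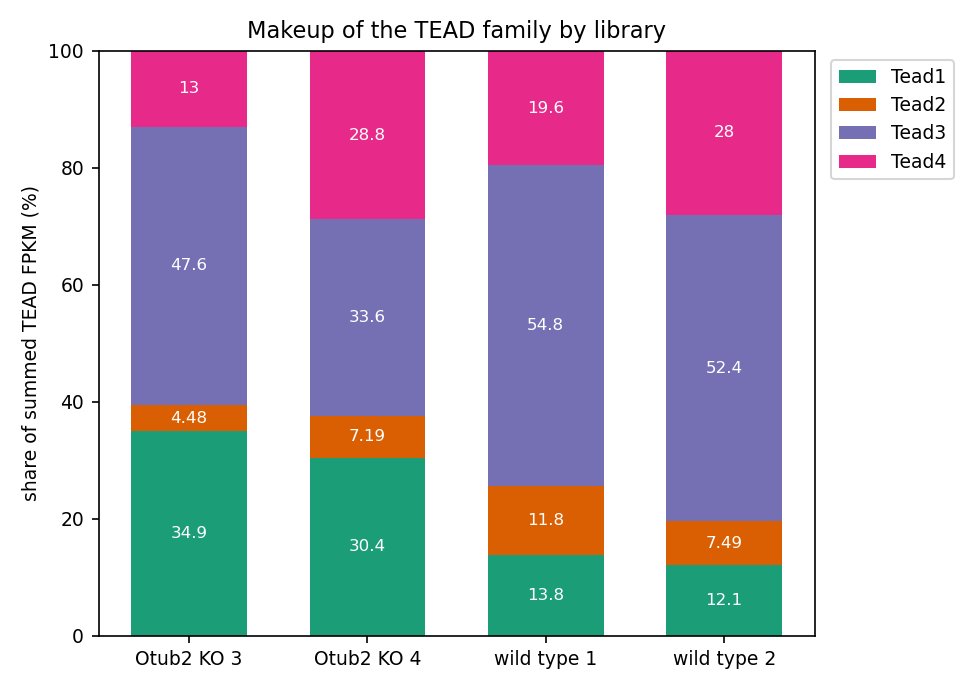
Share of each TEAD gene in the summed FPKM of Tead1 to Tead4, in percent, for each library. Tead1 takes 34.9% and 30.4% in the knockout libraries against 13.8% and 12.1% in the wild-type libraries, and Tead3 takes the most in all 4.

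Of the LATS kinases, the less abundant Lats2 lay farther above the wild-type libraries than Lats1. Lats1 (ENSMUSG00000040021, chromosome 10, 7681214 to 7716460, plus strand) was at 69.3 and 77.1 CPM in KO 3 and KO 4, against 47.8 and 69.1 CPM in wild type 1 and 2. KO 3 and wild type 2 were nearly equal, and the log2 fold change was 0.33 (SE 0.289, interval -0.41 to 1.06, edgeR adjusted p = 0.486). Lats2 (ENSMUSG00000021959, chromosome 14, 57689662 to 57758388, minus strand), which is itself known as a transcriptional target of YAP, had 208 and 355 counts in KO 3 and KO 4 and 117 counts in each wild-type library. It was at 14.5 and 17.2 CPM in KO 3 and KO 4, against 8.19 and 8.57 CPM in wild type 1 and 2, with no overlap. The log2 fold change was 0.92 (SE 0.364, interval -0.01 to 1.84, edgeR adjusted p = 0.204). Per length, Lats2 stayed far below Lats1 in every library, at a ratio of 0.219 and 0.233 in KO 3 and KO 4 and of 0.179 and 0.130 in wild type 1 and 2. The log2 ratio differed by 0.57 (knockout mean -2.15 ± 0.0625, wild-type mean -2.71 ± 0.330, SD, n = 2 each; exact two-sided permutation p = 0.333, the smallest possible). It was 0.33 without wild type 2 and 0.80 without wild type 1, so its size rested on which wild-type library was used.

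Sav1 (ENSMUSG00000021067, chromosome 12, 69965012 to 69987002, minus strand), which holds the upstream kinases on LATS, was at 15.8 and 18.1 CPM in KO 3 and KO 4, against 8.05 and 12.8 CPM in wild type 1 and 2. The 2 wild-type libraries differed by 0.67 on the log2 scale, almost as much as the fold change of 0.70 (SE 0.404, edgeR adjusted p = 0.312). Ptpn14 (ENSMUSG00000026604, chromosome 1, 189728268 to 189876695, plus strand), a phosphatase that binds YAP and restrains it and that is also a YAP target, was at 28.6 and 35.4 CPM in KO 3 and KO 4, against 22.0 and 26.2 CPM in wild type 1 and 2. Its log2 fold change of 0.41 (SE 0.299, edgeR adjusted p = 0.403) was close to the median of 0.41 over all genes with a mean of at least 5 CPM. Of the 10 genes, 8 are overlapped on the opposite strand by an annotated gene, such as Cd37 at Tead2 and Atl1 at Sav1. As the strand setting of the counting is not given in the sources used here, reads of such pairs cannot be told apart.

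**Figure D3:**
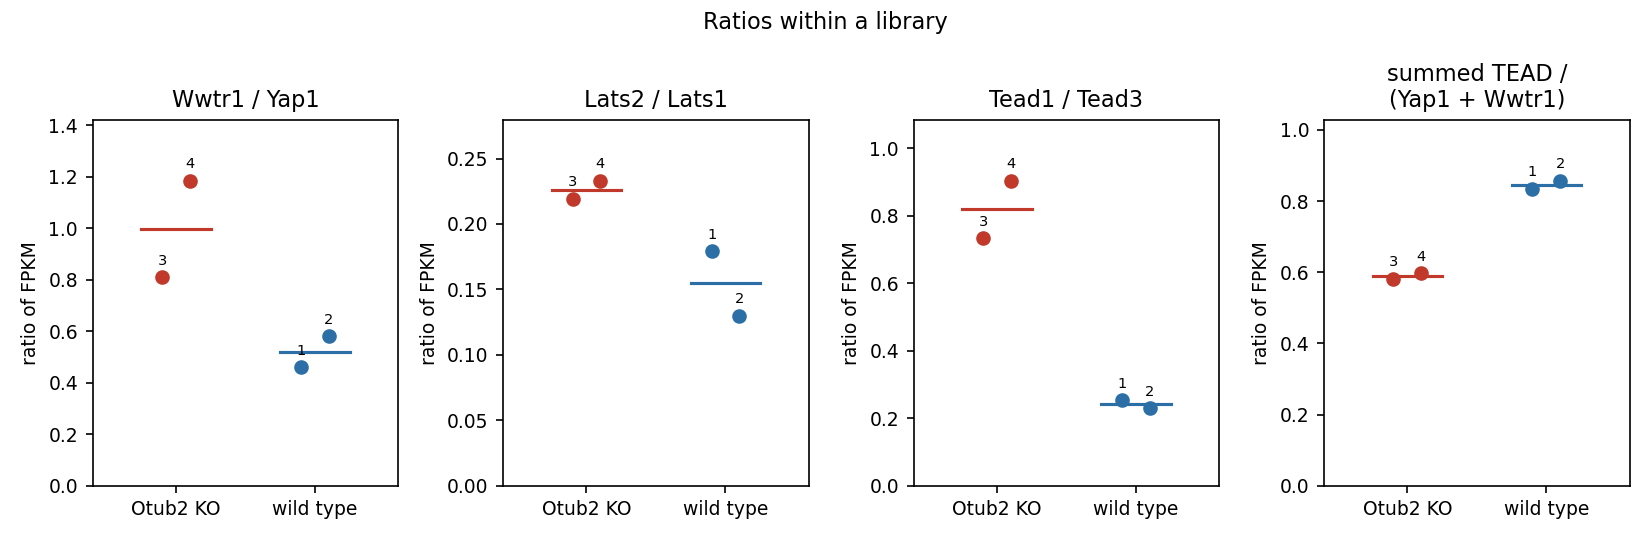
Ratios of FPKM within each library (linear axes from 0), with points for libraries, marked by number, and lines for the mean of a group. The knockout and wild-type points are separate in all 4 panels, by the most for Tead1 over Tead3 (0.734 and 0.904 against 0.253 and 0.230).

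In edgeR, 0 of the 10 genes passed an adjusted p of 0.05, as did 0% of the 21916 genes tested, and limma voom also called 0 of the 10. At an unadjusted p under 0.05 there were 2 of the 10 higher (Wwtr1 and Tead1) and 0 lower, where 9.42% of all genes were higher and 15.2% lower. DESeq2 called Tead1 higher, with 3.56% of all genes called higher and 1.18% lower. Both knockout libraries lay above both wild-type libraries in 7 of the 10 genes and below them in 1, Tead3. Among genes with a mean of at least 5 CPM, to which all 10 belong, these shares were 42.7% above and 12% below. The median log2 fold change was 0.37 over the 10 genes, against 0.41 over genes with a mean of at least 5 CPM and 0.09 over all genes tested. The order of the 2 medians changed with the setting. The 10 genes had 0.53 against 0.38 for genes with a mean of at least 5 CPM without KO 3, 0.61 against 0.49 without wild type 2, and 0.38 against 0.36 in limma voom. Without wild type 1 they had 0.24 against 0.43. For Yap1 and Lats1 the gap between the nearest knockout and wild-type libraries was under 1 CPM.

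Set against that median of 0.41, Tead1 lay 0.91 above it on the log2 scale, Wwtr1 0.66, Lats2 0.51 and Sav1 0.30. Ptpn14 lay at it, Lats1 differed from it by -0.08 and Yap1 by -0.29. Tead4, Tead3 and Tead2 differed from it by -0.53, -0.85 and -1.08. This order held under 6 ways of scaling the libraries, which says little, since a scaling moves all genes of a library by 1 factor. The value relative to the median gene ran from 0.91 to 0.93 for Tead1, from 0.66 to 0.74 for Wwtr1, from -0.29 to -0.28 for Yap1 and from -0.86 to -0.84 for Tead3. It moved more for Tead4, from -0.53 to -0.36, and for Tead2, from -1.08 to -0.95. The unadjusted direction did depend on the scaling. With upper-quartile scaling Yap1, Lats1 and Ptpn14 had log2 fold changes of -0.35, -0.14 and -0.05, and 3 of the 10 genes lay above both wild-type libraries and 3 below, where 15.8% and 31.3% of genes with a mean of at least 5 CPM did.

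**Figure D4:**
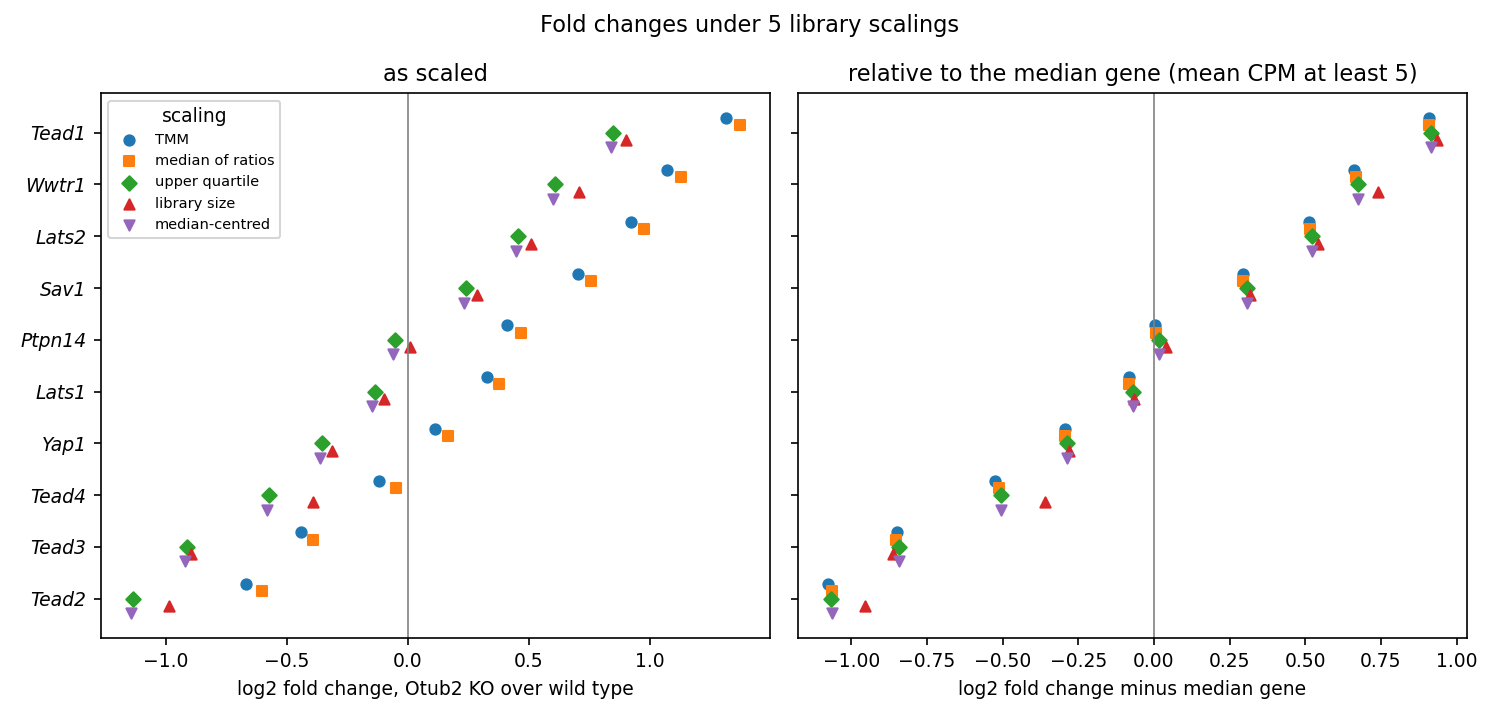
Log2 fold change of each gene, knockout over wild type, under 5 library scalings (symbols), as scaled at left and after subtracting the median of genes with a mean of at least 5 CPM at right. At left the values of a gene spread and those of Yap1, Lats1 and Ptpn14 cross 0, whereas at right they lie closer together, with the widest spread for Tead4 and Tead2.

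Each library labelled knockout was also set alone against the wild-type pair, on the assumption that the lone library varies as the wild-type pair does. KO 4 alone gave 4 of the 10 genes higher and 0 lower, where 18.8% of all genes were called higher and 22% lower. They were Tead1 (log2 fold change 1.45, edgeR adjusted p = 7.6e-07), Wwtr1 (1.39, adjusted p = 2.12e-06), Lats2 (1.06, adjusted p = 0.00204) and Sav1 (0.83, adjusted p = 0.0179). KO 3 alone gave 3 higher and 2 lower, with 22.4% and 12.7% of all genes called. Tead1 (1.2, edgeR adjusted p = 4.97e-05), Wwtr1 (0.70, adjusted p = 0.0314) and Lats2 (0.79, adjusted p = 0.0342) were higher, and Tead2 (-1.33, adjusted p = 0.00142) and Tead4 (-1.12, adjusted p = 0.00275) were lower. The 2 fits share the wild-type libraries, so their agreement is not independent. The shares of all genes are not matched for level. With KO 4 alone the median log2 fold change was 0.38 over genes with a mean of at least 5 CPM and -0.14 over all genes tested. With KO 3 alone these medians were 0.28 and -0.10. Tead4 had opposite signs in them, with 0.49 in KO 4 (adjusted p = 0.163).

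**Figure D5:**
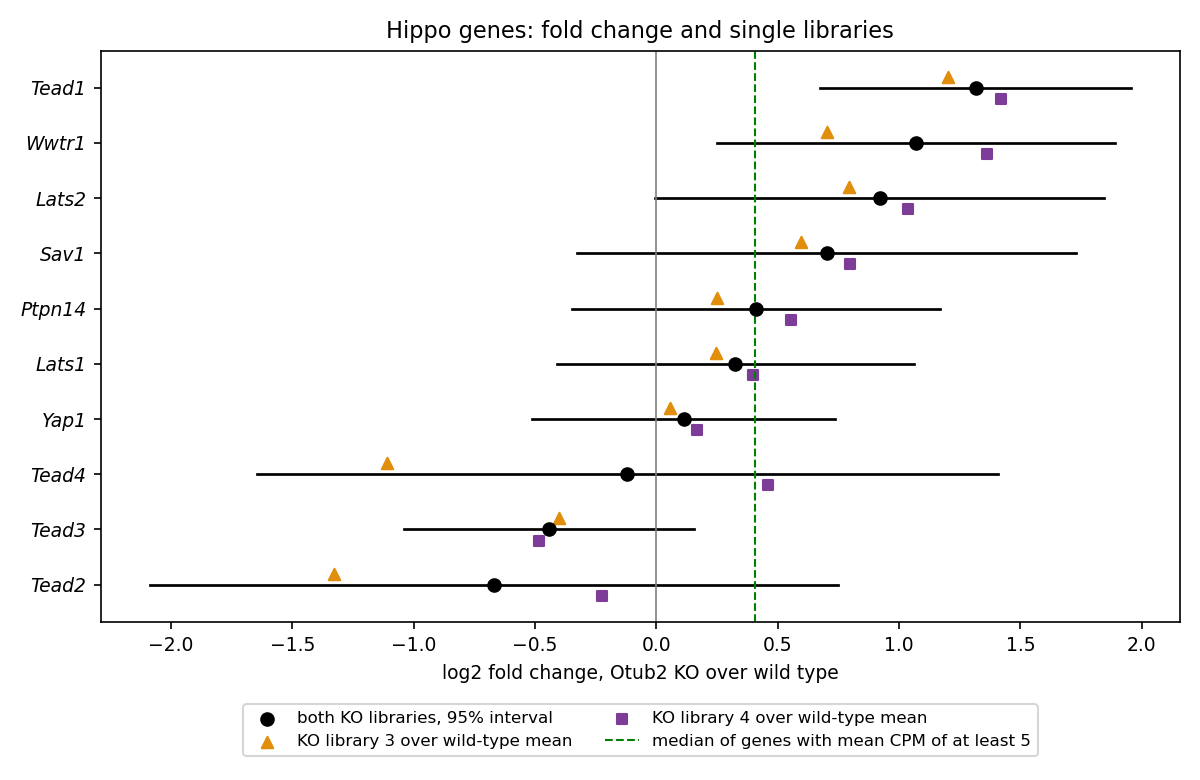
Log2 fold change of each gene, knockout over wild type, with its 95% interval from the edgeR fit (black), and the log2 ratio of KO 3 (triangles) and KO 4 (squares) to the wild-type mean. The dashed line is the median of genes with a mean of at least 5 CPM. Tead1, Wwtr1, Lats2 and Sav1 lie right of it in both libraries, while the KO 3 and KO 4 points of Tead2 and Tead4 lie far apart.

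The other components of the pathway gave the setting for these values. Of 64 further genes in 5 lists, 62 were tested and 0 passed in edgeR. At an unadjusted p under 0.05, 7 of the 62 were higher and 3 lower, beside 9.42% and 15.2% of all genes. Of the 54 with a mean of at least 5 CPM, 25 lay above both wild-type libraries and 7 below, beside 42.7% and 12% of all such genes. Their median log2 fold change was 0.42, near the 0.41 of all such genes. DESeq2 called 3 of the 62 higher (Wwc2, Amotl2 and Strip2) and 0 lower, beside 3.56% and 1.18% of all genes. DESeq2 gave no adjusted p for Crb1, Crb2 and Dchs2, so they could not be called. The shares of all genes are over the 21916 tested, with or without an adjusted p. With KO 4 alone against the wild-type pair, the 61 pathway genes tested had a median log2 fold change of 0.51. It was 0.38 over genes with a mean of at least 5 CPM and -0.14 over all genes tested. With KO 3 alone the order was the other way. The 62 pathway genes tested had a median of 0.12, against 0.28 over genes with a mean of at least 5 CPM. Strip2, a STRIPAK subunit named after its values were seen, was at 61.9 CPM in KO 3 and 1.21 CPM in KO 4, against 1.75 and 1.68 CPM in wild type 1 and 2, so only KO 3 was high. Among 33 upstream regulators, Wwc2, a paralog of the KIBRA scaffold, was at 62.4 and 52.0 CPM in KO 3 and KO 4 and at 23.2 and 17.7 CPM in wild type 1 and 2 (log2 fold change 1.48, SE 0.295, edgeR adjusted p = 0.166, DESeq2 adjusted p = 0.00904). Amotl2, an angiomotin that tethers YAP and is a YAP target, was at 43.9 and 38.0 CPM in KO 3 and KO 4, against 9.59 and 17.3 CPM (log2 fold change 1.61, SE 0.393, edgeR adjusted p = 0.166, DESeq2 adjusted p = 0.0235). Patj, a scaffold of the Crumbs polarity complex, was at 45.8 and 70.2 CPM in the knockout libraries, against 24.8 and 28.1 CPM.

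In the other direction, Crb3, the epithelial Crumbs protein, was at 17.1 and 22.7 CPM in KO 3 and KO 4, against 37.6 and 30.7 CPM in wild type 1 and 2 (log2 fold change -0.78, SE 0.317, edgeR adjusted p = 0.209). Rassf2, an adaptor that binds the MST kinases, was at 3.77 and 2.81 CPM in the knockout libraries, against 9.73 and 7.54 CPM. Crb2, a further Crumbs protein, had 5 and 0 counts in KO 3 and KO 4 and 29 and 22 counts in wild type 1 and 2. Patj and Crb3, which act in the same polarity complex, thus lay on opposite sides of the wild-type libraries.

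Above LATS in the cascade stand the MST kinases and their partners. Stk3 and Stk4, which encode the MST kinases, were at 16.8 and 19.6 CPM and at 42.9 and 60.1 CPM in KO 3 and KO 4, against 10.1 and 12.8 CPM and 32.5 and 39.1 CPM in wild type 1 and 2. Their log2 fold changes were 0.67 (SE 0.356) and 0.53 (SE 0.298), with edgeR adjusted p-values of 0.285 and 0.306. Mob1a and Mob1b, the co-activators of LATS, had log2 fold changes of 0.07 and -0.38 (edgeR adjusted p = 0.906 and 0.450). Nf2, the membrane scaffold merlin, was at 114 and 120 CPM in KO 3 and KO 4 and at 107 and 103 CPM in wild type 1 and 2. Tnik and Map4k2, of the kinase family that can phosphorylate LATS in parallel to the MST kinases, had log2 fold changes of 0.90 with an SE of 0.339 and 0.73 with an SE of 0.344. Those of Map4k3 and the LATS-related kinase Stk38 were -0.40 and -0.26. None of these passed in edgeR. Of the 16 kinase genes, all with a mean of at least 5 CPM, 5 lay above both wild-type libraries and 2 below. Among all such genes, 42.7% lay above and 12% below.

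Further components oppose the cascade or turn over its effectors. In the STRIPAK phosphatase complex, which removes phosphate from the MST kinases, Sike1 had a log2 fold change of 0.73 (SE 0.249), Strn4 of 0.36 and Strn of -0.79 (SE 0.308). Strn was at 58.0 and 78.3 CPM in KO 3 and KO 4, against 99 and 137 CPM in wild type 1 and 2. The edgeR adjusted p of these 3 genes was 0.181, 0.410 and 0.201. Fbxw11, Btrc and Csnk1d, which take part in the degradation of YAP and TAZ, had log2 fold changes of 0.62, 0.79 and 0.53 (edgeR adjusted p = 0.261, 0.275 and 0.352). Of the VGLL proteins, which compete with YAP and TAZ for TEAD factors, Vgll4 was at 60.1 and 73.9 CPM in KO 3 and KO 4 and at 54.3 and 57.9 CPM in wild type 1 and 2. Vgll3 was at 1.82 and 7.60 CPM in the knockout libraries, against 1.40 and 2.05 CPM, so that KO 4 alone was high. Vgll1 and Vgll2 had at most 8 counts in any library and were not tested.

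By the root mean square difference of log2 deviations over the 4 libraries, the nearest of the 54 other pathway genes was Nf2 for Yap1 (0.0309), Patj for Wwtr1 (0.0408), Ctnna1 for Lats2 (0.0264) and Wwc2 for Tead1 (0.211). Among the 10 genes themselves, Wwtr1 and Lats2 were nearest to each other (0.170), as were Lats1 and Ptpn14 (0.116). With 4 libraries these are descriptions only.

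Of 20 target genes of YAP and TAZ, 19 had a mean of at least 5 CPM, and 11 of these lay above both wild-type libraries and 1 below, beside 42.7% and 12% of all such genes. Their median log2 fold change was 0.64, against 0.41. In edgeR 0 of the 20 passed, and at an unadjusted p under 0.05 there were 6 higher and 1 lower, beside 9.42% and 15.2% of all genes. DESeq2 called 5 of the 20 higher (Cyr61, Arhgef17, Nt5e, Amotl2 and Ankrd1) and 0 lower, beside 3.56% and 1.18%. Amotl2 and Fjx1 are also among the 33 upstream regulators above, so the call of Amotl2 is counted in both lists. With KO 4 alone, the median log2 fold change of the 20 was 0.86, beside 0.38 over genes with a mean of at least 5 CPM. With KO 3 alone these medians were 0.66 and 0.28. Ankrd1, an ankyrin repeat protein also known from heart muscle, was at 536 CPM in KO 3 and 3.05 CPM in KO 4, against 1.54 and 1.76 CPM in wild type 1 and 2, so that KO 3 was far above the other 3 libraries. Cyr61, a matricellular protein, was at 55.9 and 60.8 CPM in KO 3 and KO 4, against 10.4 and 9.74 CPM in wild type 1 and 2. Nuak2, a kinase, was the gene below, at 66.5 and 54.2 CPM against 154 and 107 CPM.

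Fibroblast markers were higher by their sum in both libraries labelled knockout, as Tead1 and Wwtr1 were. The 12 fibroblast markers summed to 812 CPM in KO 3 and 555 CPM in KO 4, against 196 and 238 CPM in wild type 1 and 2. Of the 12, 9 lay above both wild-type libraries in both knockout libraries and 0 below. Among all genes with a mean of at least 5 CPM, 42.7% lay above and 12% below. None of the 12 was at 0 counts in any library. Within the list, Dcn, a small proteoglycan of fibroblasts, was at 169 and 11 CPM in KO 3 and KO 4, against 17.1 and 18.6 CPM, and Pdgfra, a growth factor receptor of fibroblasts, at 32.1 and 7.07 CPM, against 8.40 and 8.06 CPM. The collagen gene Col1a1 was at 164 CPM in KO 4, against 44.4 and 49.3 CPM in wild type 1 and 2. The 7 smooth muscle and pericyte markers summed to 1027 and 100 CPM in KO 3 and KO 4, against 51.9 and 47.2 CPM. The 5 endothelial markers summed to 213 and 59.8 CPM in KO 3 and KO 4, against 61.4 and 54.6 CPM. The 9 markers of differentiating keratinocytes summed to 27982 and 28126 CPM in KO 3 and KO 4, against 55526 and 52871 CPM, and the 7 basal markers to 17221 and 30486 CPM, against 32094 and 28841 CPM. The part of these cell types in the values of the 10 genes was not tested.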

How the data were processed

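RNA-seq counts of 2 libraries labelled Otub2 knockout and 2 labelled wild type were analysed from 1 table. The authors deposited raw read counts per gene, per the file headers, and an FPKM for each count, which per the file headers and values is the count divided by gene length and column total. HISAT2, DESeq and the human build GRCh38 stand in the submitters' processing notes, while the gene IDs are mouse; the counting tool and strand setting are not stated there. Of 54446 gene IDs, 54409 were found in GENCODE M21 (GRCm38), the source of gene coordinates. The 14785 features without a gene ID (1.29% and 0.914% of counts in KO 3 and KO 4, 2.84% and 2.82% in wild type 1 and 2) were left out. The number of unused per-sample columns was 0.

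The main test was edgeR's quasi-likelihood test (version 4.0.16, R 4.3.3) on counts kept by filterByExpr, after TMM scaling, with Benjamini-Hochberg adjustment at 0.05 over 21916 genes. On data simulated with the spread of these libraries, it found 29% of genes changed by 2 on the log2 scale and 80% of those changed by 3. The log2 fold changes of the 10 genes were at most 1.32 in size, a range that was not simulated. CPM use the TMM-scaled size, standard errors come from the F statistic. DESeq2 1.42.0 and limma 3.58.1 (voom), 5 scalings, 2 filters, unnamed features kept and each library left out were alternatives. FPKM were compared only within a library. Named genes outside the 10 were up to 3 per list and direction with the smallest edgeR p among those with no overlap, plus 8 fixed genes. Dcn, Pdgfra, Col1a1, Krt5, Krt14, Krt15, Itgb4, Col17a1, Cdh1 and Ankrd1 were named after their values were seen, as was the Tead1 to Tead3 ratio. The same holds for Krt6a, Krt6b, Krt16, Crb1, Dchs2 and Fjx1. Members and lists were chosen with earlier results of these data known.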

Additional observations from a re-analysis of the deposited data

How the results depend on the processing

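No paired analysis was possible because the groups share no replicate number. Tead1, Wwtr1, Lats2 and Sav1 stayed above 0 and Tead2 and Tead3 below 0 in all 14 alternatives, with log2 fold changes from 0.84 to 1.57, 0.60 to 1.39, 0.45 to 1.18, 0.23 to 1.11, -1.33 to -0.20 and -0.92 to -0.19. The lack of overlap between the groups held in all of them for Tead1 and Tead3. It was lost with library size only for Wwtr1, Lats2 and Sav1. For Sav1 it was also lost with upper-quartile scaling and median centring. Yap1 turned to -0.35 with upper-quartile scaling, -0.31 with library size only, -0.36 with median-centred libraries and -0.20 with a mean CPM of at least 5. Lats1 turned to -0.14, -0.10 and -0.15 under the same 3 scalings, and Ptpn14 to -0.053 with upper-quartile scaling and -0.062 with median centring. Tead4 turned to 0.026 with no filter and 0.15 with unnamed features kept, and ran from -1.12 to 0.49 when 1 library was left out (0.23 and 0.49 without wild type 2 and without KO 3). The cause was not tested, beyond the shift of the median gene, from 0.41 with TMM to -0.07, -0.03 and -0.08 with the 3 scalings.

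The 0 genes called by edgeR became 1470 with library size only, 1038 with DESeq2 and 9 with no filter, and 0 to 9456 when 1 library was left out (9456 without KO 3, 8204 without KO 4). Of the 10 genes, DESeq2 called 1, and leaving out 1 library called 0 to 5. Of the other pathway genes, library size only called 1 (Crb2), DESeq2 3 and leaving out 1 library 0 to 31. In the fits without a library, the lone one is assumed to vary like the other group, and the counts called rest on that. By effect size, the other pathway genes tested had a median log2 fold change of 0.51 without KO 3 and 0.12 without KO 4. Over all genes with a mean of at least 5 CPM these medians were 0.38 and 0.28, so the order was not the same. The difference in the Tead1 share was 27.8 points with CPM in place of FPKM and 16.1 with FPKM plus 1. The Tead4 share difference of -2.92 points ran from -10.8 to 5.01 when 1 library was left out, turning to 1.3 without wild type 2 and 5.01 without KO 3. The summed TEAD FPKM over Yap1 plus Wwtr1 was 0.581 and 0.596 in KO 3 and KO 4, against 0.834 and 0.857 in wild type 1 and 2, and its log2 difference of -0.52 was -0.09 with CPM in place of FPKM, so it rests on the division by length. The smallest counts were 51 for Tead2 and 111 for Tead4, both in KO 3.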
